A study of Mus musculus and Sus scrofa with 18 samples.

Results

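The 39 genes of the 4 mouse Hox clusters (Hoxa with 11 genes, Hoxb with 10, Hoxc with 9 and Hoxd with 9) were examined in striatal RNA of WT and HD 140Q-KI mice after CRISPR/CasRx injection. They were taken from the 55357 genes of the mouse count table as all symbols made of Hoxa, Hoxb, Hoxc or Hoxd and a number, so antisense genes were left out. The mice came in 3 groups of 3, each library being 1 mouse. WT mice received AAV9-Ctrl gRNA without CasRx, HD untreated mice received AAV9-CasRx with Ctrl gRNA, and HD treated mice received AAV9-CasRx with the gRNA pairs HTT gRNA1+2 and HTT gRNA3+4. HD 140Q-KI mice are heterozygous for a knock-in that places exon 1 of human HTT, with a long CAG repeat, into mouse Htt. CasRx, an RNA-cutting Cas enzyme, was driven by the CAG promoter, which is active in most cell types, and all vectors were injected into the striatum at 6 months of age, 1.5 months before the tissue was taken. WT and HD mice thus differed in both the Htt allele and the presence of CasRx, and these cannot be told apart. The series also holds pigs, which were not analysed here.

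Hox genes encode homeodomain transcription factors that give cells their position along the head-to-tail axis of the embryo. Low paralog numbers are used towards the hindbrain and high numbers towards the lower spinal cord, whereas the forebrain, including the striatum, forms without them. In forebrain neurons the clusters are held silent by Polycomb: PRC2 places H3K27me3 through Ezh1 or Ezh2, and PRC1 binds this mark through Cbx proteins. Loss of PRC2 in adult striatal neurons is known to release Hox and other developmental regulators, so the counts of these genes show whether such release can be seen.

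CpG-rich promoters are the usual place of Polycomb binding in mammals. To show how far this feature was present, the 250 bases before the RefSeq start site (build GRCm38.p6) are printed for the gene with the most counts in each cluster, 5′ to 3′ on the gene's strand, with every CG in capitals.
Hoxc4, chr15:103034145-103034394, plus strand: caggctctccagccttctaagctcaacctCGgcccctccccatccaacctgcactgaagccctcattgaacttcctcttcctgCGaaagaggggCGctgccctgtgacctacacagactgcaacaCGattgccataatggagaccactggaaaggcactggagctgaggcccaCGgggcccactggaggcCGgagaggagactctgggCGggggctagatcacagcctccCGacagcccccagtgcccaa
Hoxd1, chr2:74762730-74762979, plus strand: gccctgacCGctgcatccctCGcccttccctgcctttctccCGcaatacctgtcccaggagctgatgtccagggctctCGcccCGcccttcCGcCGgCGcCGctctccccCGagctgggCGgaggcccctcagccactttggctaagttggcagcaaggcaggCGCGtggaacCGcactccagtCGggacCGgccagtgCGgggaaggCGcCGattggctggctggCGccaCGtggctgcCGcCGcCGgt
Hoxb4, chr11:96318017-96318266, plus strand: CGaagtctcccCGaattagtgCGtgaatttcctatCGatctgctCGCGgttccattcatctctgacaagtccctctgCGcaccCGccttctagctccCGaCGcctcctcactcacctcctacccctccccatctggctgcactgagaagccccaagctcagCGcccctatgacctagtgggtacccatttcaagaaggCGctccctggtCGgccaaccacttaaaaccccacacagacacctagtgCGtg
Hoxa7, chr6:52218574-52218823, minus strand: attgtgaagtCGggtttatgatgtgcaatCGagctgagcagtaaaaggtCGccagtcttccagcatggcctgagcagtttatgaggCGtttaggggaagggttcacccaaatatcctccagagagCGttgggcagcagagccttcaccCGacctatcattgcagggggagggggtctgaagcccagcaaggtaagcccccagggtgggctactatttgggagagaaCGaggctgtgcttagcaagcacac
The Hoxd1 window held 24 CG dinucleotides, Hoxb4 14, Hoxc4 8 and Hoxa7 7. Of all 32851 promoter windows of this length 92.1% held at least 1 CG, and 88.0%, 70.6%, 57.0% and 53.7% held fewer than Hoxd1, Hoxb4, Hoxc4 and Hoxa7. The median over all windows was 6, so the Hoxc4 and Hoxa7 windows lay near it and were not CpG-rich by this count. The first bases after the Hoxa7 start were not found in a Hoxa7 transcript of GENCODE M21, unlike those of the other 3 genes. A window was given for 22 of the 39 Hox genes. Its CG content did not separate counted from uncounted genes: the median was 13 for 8 genes with a count and 13 for 14 without. The libraries read the 3′ end of mRNA, so the counts do not show which start site was used.

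Total counts ranged from 27184356 to 32102121 per library. The tissue label was borne out by striatal projection neuron markers: all 10 were counted in every library, with a sum of 179702 to 264362 counts in WT, 58888 to 72896 in HD untreated and 98985 to 107513 in HD treated mice. In bulk tissue, fewer cells of a type and less RNA per cell cannot be told apart. Htt, the target, was 187 ± 4.79 CPM (counts scaled to a common library size by TMM; SD, n = 3) in WT, 145 ± 4.60 in HD untreated and 135 ± 4.64 in HD treated mice. Y-linked genes were counted in 4 libraries, the 3 WT mice and HD untreated replicate 1, and were at 0 in the other 5, so group and sex are fully confounded between WT and HD treated mice.

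Hox transcripts were close to absent. The 39 genes together held 251 counts over the 9 libraries, which is 0.945 CPM of all counts before scaling, and no single value was above 21. Of the 39 genes 21 were at 0 in every library, 18 had a count somewhere, 8 of these in 1 library only, and none was counted in all 9. With a floor of 3 counts, a gene at 0 could still be present at up to 0.0918 to 0.113 CPM, depending on the library. In GENCODE M21, 10 of the 39 genes have exon overlap with an opposite-strand gene and 9 with a same-strand gene, some genes at 0 among them. Whether reads in these overlaps went uncounted was not tested, and the floor does not allow for it. Of the 48 values above 0, 37 were even, none was a 1 and 22 were a 2, whereas over all genes 18378 values were 1 and 17206 were 2. Whether mates of 1 read pair were counted separately was not tested. The intervals and fold bounds given below treat each count as independent and cover counting error only. If mates were counted separately, the intervals are too narrow and the bounds too firm.

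**Figure D1:**
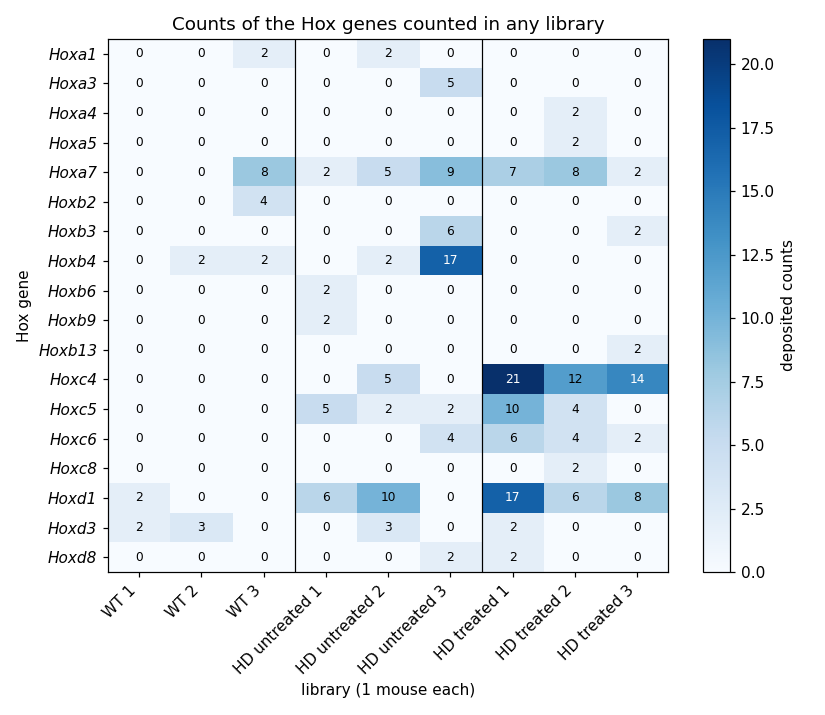
Deposited counts of the 18 Hox genes counted in any library (rows) in each of the 9 libraries (columns, 3 per group); darker cells hold more counts. The Hoxc genes are at 0 in all WT mice, Hoxc4 is highest in the 3 HD treated mice, and the highest Hoxb4 value, 17, is in HD untreated replicate 3.

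The genes without any count were mostly of the trunk and tail end. Of the 16 genes with paralog numbers 9 to 13 only Hoxb9 and Hoxb13 had a count, 2 in 1 library each. The 15 genes of paralogs 4 to 8, used in the hindbrain, neck and thorax, held 167 of the 251 counts, and the 8 genes of paralogs 1 to 3 held 80. Hoxc4, Hoxd1, Hoxa7 and Hoxb4 alone held 65.7% of all Hox counts.

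Summed over the 39 genes, WT replicates 1 to 3 held 4, 5 and 16 counts, HD untreated replicates 17, 29 and 45, and HD treated replicates 65, 40 and 30. All 6 HD mice were above all 3 WT mice, although HD untreated replicate 1 exceeded WT replicate 3 by a single count, and the HD groups overlapped each other. On the CPM scale the sum was 0.289 ± 0.211 in WT, 1.03 ± 0.468 in HD untreated and 1.42 ± 0.519 in HD treated mice (SD, n = 3 each), a ratio of 3.58 for HD untreated and 4.94 for HD treated mice over WT and of 1.38 between the HD groups. The sum is a description without a test, since its genes were chosen with results of these data known. Both ratios to WT use the same 3 mice. Without Hoxc4 the ratio between the HD groups was 0.951, and the ratios to WT were 3.38 and 3.22.

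Sex moved with this sum. The 4 libraries with Y-linked counts had Hox sums of 4 to 17 and the 5 without had 29 to 65, with no overlap. Among libraries with Y-linked counts, the 1 HD untreated mouse had 17 against 4, 5 and 16 in WT; among those without, HD untreated mice had 29 and 45 and HD treated mice 65, 40 and 30. With no WT mouse in the second set, sex and group cannot be told apart for HD treated mice against WT. For HD untreated mice against WT, only the 1 mouse with Y-linked counts matches the WT mice in sex.

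**Figure D2:**
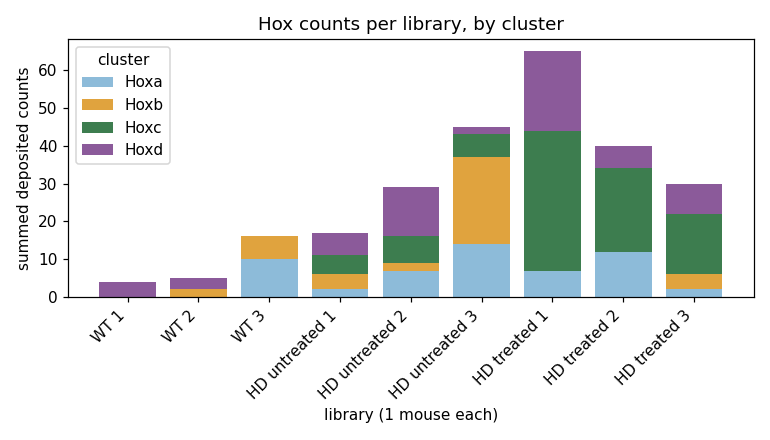
Summed deposited counts of the 39 Hox genes in each library, stacked by cluster. The sum runs from 4 in WT replicate 1 to 65 in HD treated replicate 1, and the Hoxc share (green) is missing in WT and largest in the HD treated mice.

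The clusters behaved unequally. The Hoxc cluster was at 0 in every WT mouse, at 5, 7 and 6 counts in HD untreated and at 37, 22 and 16 in HD treated mice, so the 3 groups did not overlap. Of these counts Hoxc4 alone held 0, 5 and 0 in HD untreated and 21, 12 and 14 in HD treated mice. Without Hoxc4 the HD groups overlapped. The share of such non-overlap over all genes was not worked out. Hoxb went another way, with 0, 2 and 6 counts in WT, 4, 2 and 23 in HD untreated and 0, 0 and 4 in HD treated mice. Hoxa held 0, 0 and 10 counts in WT, 2, 7 and 14 in HD untreated and 7, 12 and 2 in HD treated mice, with overlap between all groups. Hoxd held 4, 3 and 0 in WT, 6, 13 and 2 in HD untreated and 21, 6 and 8 in HD treated mice, where HD treated lay above WT.

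Hoxc4, which acts in the neck and upper spinal cord, was the only Hox gene to pass the low-count filter. It was at 0 in all 3 WT mice, at 0, 5 and 0 counts in HD untreated and at 21, 12 and 14 in HD treated mice. The HD treated mice lay above all others, and 2 of 3 HD untreated mice were at the WT value. The HD treated mean was 0.497 ± 0.130 CPM (SD, n = 3) against 0.0559 ± 0.0969 in HD untreated mice. Set against a floor of 3 counts over the WT group, Hoxc4 was at least 14.0-fold higher in HD treated than in WT mice, and its ratio to HD untreated mice was 8.78 (95% exact interval from counting 3.51 to 28.3). Having passed the filter through the group where it was high, it had to differ, and its call is read with that in mind. Hoxc4 has no exon overlap with another gene in GENCODE M21.

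**Figure D3:**
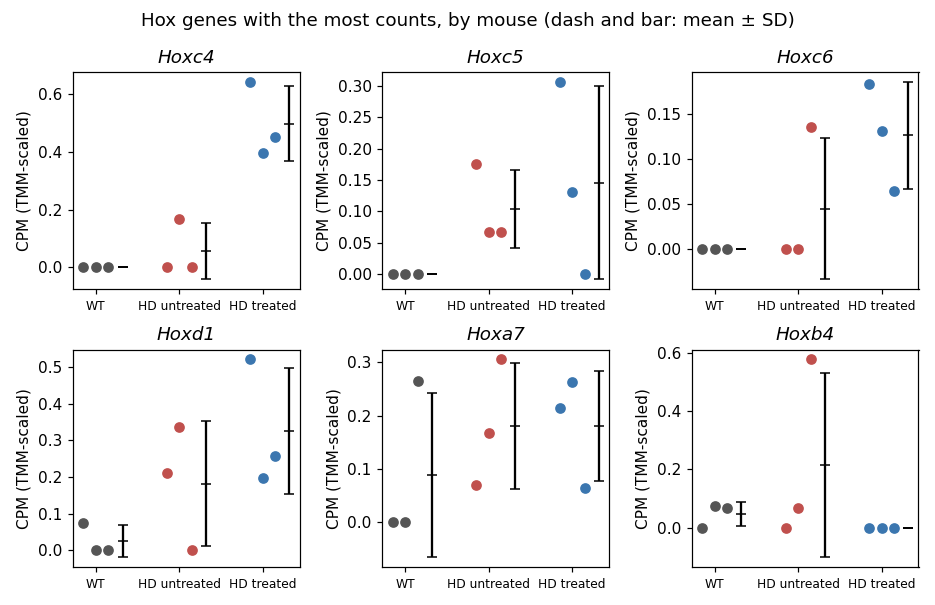
TMM-scaled CPM of 6 Hox genes in each mouse (dots; left to right replicates 1 to 3) with the group mean and SD beside them (dash and bar; n = 3); each panel has its own linear axis. Hoxc4 is above all other mice in the 3 HD treated mice, whereas Hoxb4 rests on HD untreated replicate 3 and Hoxa7 overlaps between all groups.

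Its neighbours in the cluster, Hoxc5 and Hoxc6, were counted at lower levels. Hoxc5 was at 0 in WT, at 5, 2 and 2 counts in HD untreated and at 10, 4 and 0 in HD treated mice, so only the untreated group was clear of WT. In GENCODE M21 its exons overlap those of Hoxc10 on the same strand, and Hoxc10 was at 0 throughout. How reads in the overlap were assigned is not given, so they may be missing from both genes. Hoxc6 was at 0 in WT, at 0, 0 and 4 in HD untreated and at 6, 4 and 2 in HD treated mice. Hoxc8 had 2 counts in HD treated replicate 2, and the other 5 Hoxc genes had none.

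Hoxd1, of the anterior paralog group, held 2, 0 and 0 counts in WT, 6, 10 and 0 in HD untreated and 17, 6 and 8 in HD treated mice. The HD treated mice lay above WT, and the HD untreated mice overlapped both. From the 31 and 2 counts of the groups, the ratio of HD treated to WT was 13.8, with a counting interval of 3.52 to 119. The ratio of HD treated to HD untreated was 1.81 (0.960 to 3.54). Hoxd3 held 2, 3 and 0 counts in WT, 0, 3 and 0 in HD untreated and 2, 0 and 0 in HD treated mice, and its exons overlap those of Haglr and Hoxd4 in GENCODE M21.

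Hoxa7, a thoracic patterning gene, held 0, 0 and 8 counts in WT, 2, 5 and 9 in HD untreated and 7, 8 and 2 in HD treated mice, and all groups overlapped. The ratio of HD treated to WT was 1.90 (0.775 to 5.07), so a difference was not detectable at this depth. Its exons overlap Hoxaas3 on the other strand in GENCODE M21; Hoxaas3 had 1 count in all.

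Hoxb4, of the hindbrain and neck, held 0, 2 and 2 counts in WT, 0, 2 and 17 in HD untreated and 0, 0 and 0 in HD treated mice. The HD untreated level thus rested on replicate 3. Taken over the groups, Hoxb4 was at least 6.78-fold lower in HD treated than in HD untreated mice, opposite to Hoxc4. HD untreated replicate 3 also held all 5 counts of Hoxa3 and 6 of the 8 counts of Hoxb3.

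That library stood apart in markers of other cells. Slc6a5, the glycine transporter of hindbrain and spinal neurons, which was singled out after its values were seen, had 54 counts there, 10 in HD treated replicate 3, 9 in WT replicate 3 and 0 to 2 elsewhere. The full list of 8 hindbrain and spinal neuron markers summed to 24, 23 and 52 counts in WT, 34, 34 and 80 in HD untreated and 45, 35 and 58 in HD treated mice. Without Slc6a5 the other 7 summed to 34, 34 and 26 in HD untreated mice, so they were not higher in replicate 3. Cd3e, a T cell receptor subunit, had 265 counts in HD untreated replicate 3 against 10 and 16 in the others of its group, 0 to 2 in WT and 19 to 83 in HD treated mice. The 10 T cell markers, which include Cd4, a gene that WT striatum also held at 1658 to 2212 counts, summed to 1660 to 2238 in WT, 619 to 2563 in HD untreated and 1208 to 1520 in HD treated mice. Without Cd4 the other 9 summed to 2, 14 and 26 counts in WT, 101, 269 and 2137 in HD untreated and 147, 238 and 544 in HD treated mice, above WT in every HD mouse. Of the 10, 9 were called higher in HD untreated and 6 in HD treated mice against WT, beside 5.57% and 3.84% of all genes. Cd4 was called lower in both, beside 2.58% and 1.38% of all genes. At an adjusted p under 0.05 in edgeR, 5 and 0 of the 10 were higher and 1 was lower in each comparison. Apart from Cd4, these markers held few counts in WT and passed the filter through the HD groups. Their part in the Hox counts was not tested.

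Markers of plasma cells and monocytes were also higher in every HD mouse than in WT by their summed counts. The 8 B and plasma cell markers summed to 51 to 58 counts in WT, 250 to 3008 in HD untreated and 1981 to 3767 in HD treated mice. In HD mice most of this was Jchain, a part of secreted IgM and IgA, and without it the sums were 37 to 52, 39 to 230 and 196 to 290. Ms4a1, a B cell surface protein, was at 0 in WT. The 7 monocyte and neutrophil markers summed to 46 to 47 counts in WT, 92, 201 and 1057 in HD untreated and 263, 391 and 556 in HD treated mice. Their mean CPM was lower in HD treated than HD untreated mice (ratio 0.848), which rested on HD untreated replicate 3. S100a9 was at 3, 8 and 7 counts in WT and 0 in all HD treated mice. Blood cells are known to use Hox genes, and the part of these cells in the Hox counts was not tested.

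**Figure D4:**
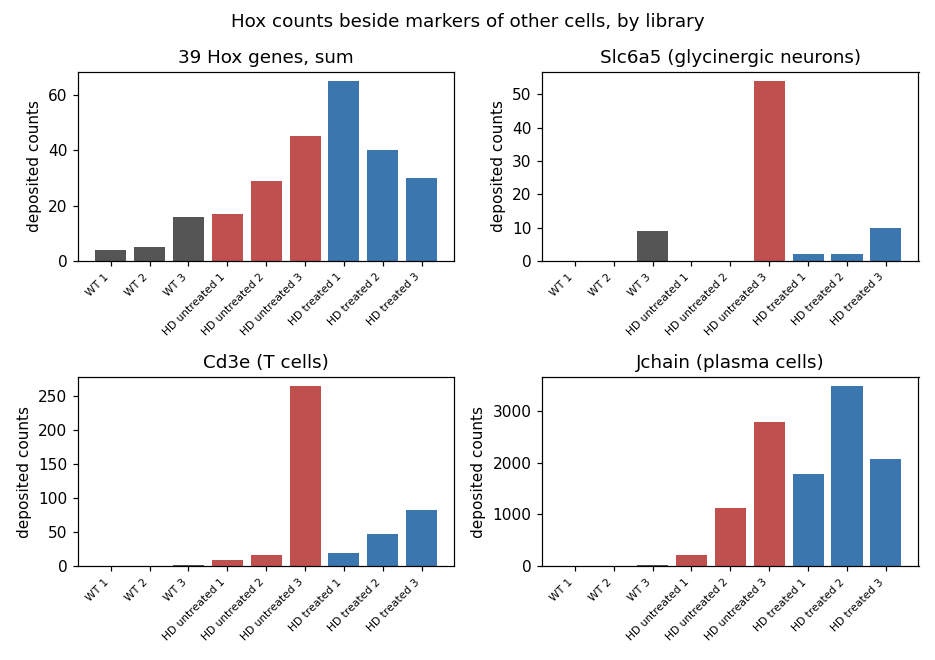
Deposited counts per library of the 39 Hox genes summed and of Slc6a5, Cd3e and Jchain, on linear axes from 0 (grey WT, red HD untreated, blue HD treated). Slc6a5 and Cd3e are highest in HD untreated replicate 3, which had a Hox sum of 45, whereas the highest Hox sum, 65, is in HD treated replicate 1.

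HD untreated against WT compares mice that differed in the Htt allele, in CasRx and in part in sex. All WT mice had Y-linked counts, and of the HD untreated mice only replicate 1 did. A difference here cannot be assigned to the disease allele alone. A gene was called when edgeR's quasi-likelihood test gave an unadjusted P under 0.05 and a change of at least 2-fold. None of the 39 genes was called by edgeR or by DESeq2, and none had an unadjusted P under 0.05 in edgeR (0 of the 1 tested). Hoxc4 had a log2 fold change of 3.85 (SE 2.03, adjusted p = 0.258), whose size against a group at 0 depends on the prior count. Of all 19463 genes tested, 5.57% were called higher, 2.58% lower and 10.7% had an adjusted p under 0.05. Without the filter, 18 Hox genes were tested and Hoxc5 was called higher (adjusted p = 0.243), beside 4.19% higher and 1.96% lower of all genes. By group mean, 12 of the 39 genes were higher in HD untreated mice, 2 were lower and 25 were at 0 in both.

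HD treated against WT gave 1 call, Hoxc4 (adjusted p = 0.0552), beside 3.84% of all genes called higher and 1.38% lower; 3.69% had an adjusted p under 0.05. An exact permutation test of its CPM, two-sided, gave p = 0.1, the smallest that 3 mice against 3 allow. Since Hoxc4 passed the filter through the HD treated group, neither its call nor this p is independent support. Without the filter Hoxc4, Hoxc5, Hoxc6 and Hoxd1 were called higher, with adjusted p between 0.118 and 0.306, beside 2.9% higher and 1.23% lower of all genes. With the share of Y-linked counts as a covariate, Hoxc4 was not called (log2 fold change 3.17), but that fit could not decide the question. Hoxc4 was at 0 in every library with Y-linked counts, and no standard error was obtained. In that fit only HD untreated replicate 1 separates sex from group. By group mean, 11 genes were higher, 4 lower and 24 at 0 in both.

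HD treated against HD untreated compares HTT gRNAs with Ctrl gRNA where CasRx and the knock-in allele were shared. Only HD untreated replicate 1 among these mice had Y-linked counts. Hoxc4 was called higher (log2 fold change 3.04, SE 0.96, edgeR adjusted p = 0.886, exact permutation p = 0.1), beside 0.36% of all genes called higher and 0.411% lower. Here too Hoxc4 had passed the filter through the HD treated group, so the call and the permutation p are no independent support. No gene reached an adjusted p under 0.05 (0% of 19463). Without HD treated replicate 1 the call was lost, at a log2 fold change of 2.81. Without the filter, Hoxc4 was called higher and Hoxb4 lower, both with adjusted p = 0.851, beside 0.682% and 0.69% of all genes. By group mean, 8 Hox genes were higher, 9 lower and 22 at 0 in both.

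Polycomb genes are given by how many differed, beside the same share of all genes. None of 12 PRC2 genes was called in any comparison by edgeR, although 2 in each comparison with WT and 0 between the HD groups had an unadjusted P under 0.05, at any fold, beside 28.6% of all genes tested in HD untreated against WT, 21.4% in HD treated against WT and 5.5% between the HD groups. At an adjusted p under 0.05 there were 2 of 12 PRC2 genes and 0 of 22 PRC1 genes in HD untreated against WT, beside the 10.7% of all genes given above. The median log2 fold change of the PRC2 genes was −0.12 in HD untreated and −0.07 in HD treated mice against WT, beside 0.02 and 0.00 over all genes. Rbbp7, a histone-binding subunit, fell by 0.32 (adjusted p = 0.0160, edgeR) and 0.30 (adjusted p = 0.0340) on the log2 scale. Jarid2, which guides PRC2 to its targets, fell by 0.43 in HD untreated mice (adjusted p = 0.0278). Ezh1, the catalytic subunit of mature neurons, was 78.3 ± 5.85 CPM in WT, 72.0 ± 5.27 in HD untreated and 70.8 ± 1.09 in HD treated mice (SD, n = 3), and Ezh2, that of dividing cells, was 9.67 ± 1.87, 8.60 ± 1.02 and 9.01 ± 0.909.

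None of 22 PRC1 genes was called against WT by edgeR, with medians of −0.03 and −0.07 and 6 of 22 genes in each comparison at an unadjusted P under 0.05, near the shares of all genes. Cbx7, a reader of H3K27me3, had a log2 fold change of −0.32 in HD untreated mice against WT (adjusted p = 0.0638, edgeR). Phc3 was called lower in HD treated than HD untreated mice (log2 fold change −2.05, adjusted p = 0.886), but its counts fell into 2 levels within groups: 413, 405 and 2536 in WT, 2393, 2688 and 459 in HD untreated and 483, 457 and 494 in HD treated mice. None of the 13 H3K27 demethylase and trithorax/MLL genes, which oppose Polycomb, was called by edgeR. Of these, 4, 3 and 0 had an unadjusted P under 0.05 in HD untreated against WT, HD treated against WT and between the HD groups. The shares of all genes were 28.6%, 21.4% and 5.5%. Kmt2a, which keeps Hox genes active where they are in use, fell by 0.35 (adjusted p = 0.0112) and 0.32 (adjusted p = 0.0275) on the log2 scale in HD untreated and HD treated mice against WT. Kdm6a, an X-linked H3K27 demethylase, had log2 fold changes of 0.40 and 0.57 (adjusted p = 0.135 and 0.0814). All WT mice had Y-linked counts and, of the HD mice, only HD untreated replicate 1 did. The part of sex in the Kdm6a values was not tested.

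**Figure D5:**
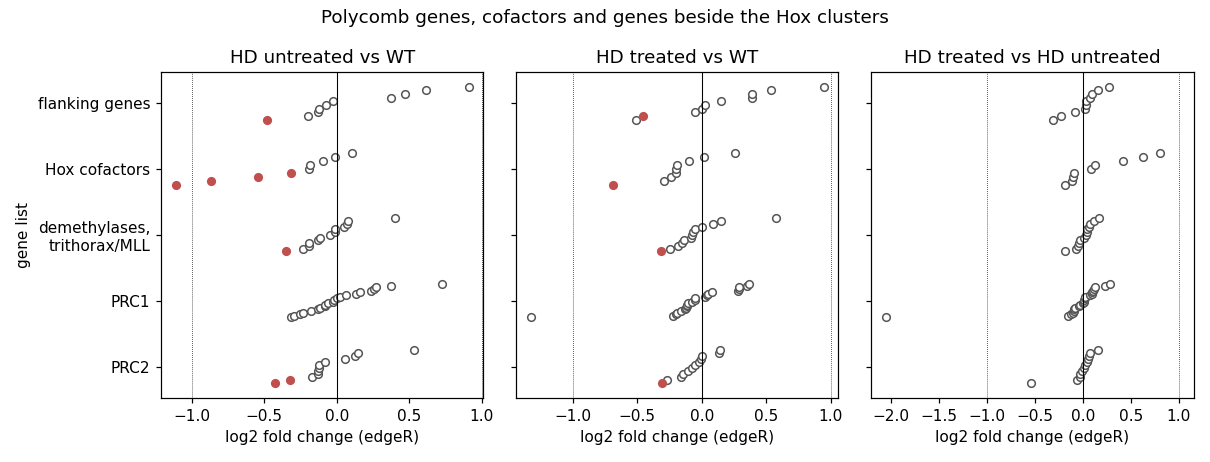
Log2 fold change from edgeR of each tested gene (dots, spread within a list by size) of the Polycomb complexes, their opponents, the Hox cofactors and the genes beside the clusters, in the 3 comparisons; filled dots have an adjusted p under 0.05, dotted lines mark 2-fold and the axes differ. Most dots lie near 0, the Hox cofactor Meis2 is past 2-fold in HD untreated against WT, and the PRC1 gene Phc3 is past it in both comparisons of HD treated mice.

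Hox proteins bind DNA with Pbx and Meis partners, and these were well expressed in striatum. Of 9 cofactors 1 was called lower in HD untreated mice against WT, beside 2.58% of all genes. At an adjusted p under 0.05 in edgeR, 4 of 9 were lower in HD untreated and 1 of 9 in HD treated mice against WT. The shares of all genes at that limit, in either direction, were 10.7% and 3.69%. The gene called was Meis2, a marker of striatal neurons too, with a log2 fold change of −1.11 (SE 0.13, adjusted p = 0.00123, edgeR). It was at 333 ± 57.1 CPM in WT, 154 ± 15.8 in HD untreated and 206 ± 11.4 in HD treated mice (SD, n = 3). Meis1 was lower in HD untreated than WT mice (log2 fold change −0.54, adjusted p = 0.0167) and was 0.80 higher on the log2 scale in HD treated than HD untreated mice (adjusted p = 0.348). Striatal neuron markers were lower beside Meis2, 9 of 10 being called in HD untreated and 8 of 10 in HD treated mice against WT. Over all genes 2.58% and 1.38% were called lower in these comparisons. The 6 cortical projection neuron markers summed to 7943 to 24603 counts in WT, 31714 to 37461 in HD untreated and 22968 to 26119 in HD treated mice. Of these, 4 of 6 were called higher in HD untreated mice against WT, beside 5.57% of all genes, and 1 of 6 at an adjusted p under 0.05. The 9 choroid plexus markers summed to 1756, 104565 and 37258 counts in WT, 5380, 1445 and 1096 in HD untreated and 7957, 1210 and 40085 in HD treated mice. All 9 were called lower in HD untreated mice against WT, beside 2.58% of all genes, but only 1 of 9 at an adjusted p under 0.05. The part of these cells in the cofactor and Hox values was not tested.

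Other developmental regulators that Polycomb commonly marks were given by a list of 72 genes, of which 29 were tested. In HD untreated mice 1 was called higher and 4 lower, in HD treated mice against WT 3 higher and 2 lower, and between the HD groups 3 higher and none lower. Over all genes the shares called higher and lower were 5.57% and 2.58%, 3.84% and 1.38%, and 0.36% and 0.411%. The list's medians were 0.26, 0.34 and 0.25, beside 0.02, 0.00 and −0.01 over all genes. Wt1, a transcription factor of kidney and gonad, was at 0 in WT, at 42, 51 and 12 counts in HD untreated and at 74, 72 and 91 in HD treated mice, at least 33.4-fold and 70.5-fold higher than WT (adjusted p = 0.00539 and 0.00487, edgeR). Its group means ran in the same order as those of Hoxc4, at higher counts. Like Hoxc4, Wt1 passed the filter through the groups where it was high and had to differ, and its calls are read with that in mind. Gbx1 and Nkx2-1, which mark forebrain cell groups, were lower in HD untreated than WT mice by log2 fold changes of −2.62 (adjusted p = 0.00123) and −1.72 (adjusted p = 0.0138).

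Of 13 genes flanking the clusters 10 were tested and none was called by edgeR, with 4, 3 and 1 at an unadjusted P under 0.05 in HD untreated against WT, HD treated against WT and between the HD groups, beside the 28.6%, 21.4% and 5.5% of all genes. Calcoco1, beside Hoxc, fell by 0.48 and 0.46 on the log2 scale (adjusted p = 0.00761 and 0.0159, edgeR), opposite to Hoxc4. Evx1, the homeobox gene at the end of Hoxa, was at 0 throughout, and Evx2, at the end of Hoxd, had 5 counts in HD untreated replicate 1 only. Of 10 noncoding genes of the clusters 4 had a count. Haglr, transcribed beside Hoxd1, held 2, 2 and 18 counts in WT, 23, 28 and 7 in HD untreated and 15, 29 and 20 in HD treated mice, with log2 fold changes of 1.36 (SE 0.78, adjusted p = 0.285) and 1.41 (SE 0.78, adjusted p = 0.334) against WT and overlapping groups. Hotair and Hottip, noncoding RNAs of the Hoxc and Hoxa clusters, were at 0 in every library.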

How the data were processed

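Striatal RNA of 9 mice was read as 3′ mRNA libraries made with an oligo-dT kit. The authors deposited raw counts per Ensembl gene, without normalization; the methods name STAR for alignment and quantification, whereas the submitters' processing notes name Trimmomatic 0.39, FastQC 0.11.9, HISAT2 2.2.1 and featureCounts 2.0.1. The mouse build, strand setting and use of molecular identifiers are not given in the sources used here. Gene overlaps and types came from GENCODE M21, and 94.1% of the IDs had a symbol.

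Counts were fitted over all 9 libraries with edgeR 4.0.16 in R 4.3.3 (filterByExpr by group, TMM, quasi-likelihood test, Benjamini-Hochberg adjustment over the 19463 genes tested). CPM used TMM-scaled totals. Calls needed an unadjusted P under 0.05 together with a change of 2-fold, the limits of the study's legends; its methods give P under 0.01. Bounds used a floor of 3 counts over the group, and count ratios have 95% exact binomial intervals. Nothing pairs mice of different groups but a replicate number, and the labels do not give litters, so p-values measure the spread between these mice. The fitting steps were tested on simulated data. Alternatives included DESeq2 1.42.0, no filter and each mouse left out.

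Hox genes and all lists were chosen with earlier results of these data known. All Hox genes are given by counts; statistics are given for genes called and for the gene with most counts in each cluster; from other lists at most 3 genes with the smallest P are named, and Phc3, Ezh1, Ezh2, Haglr, Evx1, Evx2, Hotair, Hottip and the marker genes were added after their values were seen. Figures used matplotlib in Python.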

Additional observations from a re-analysis of the deposited data

How the results depend on the processing

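With 3 mice a group and counts under 22, the number of Hox genes called turned on the low-count filter and the threshold. For HD untreated against WT it was 0; without the filter it was 1, and the same with the Y-linked covariate added, while leaving out 1 mouse gave 0 to 1. The 1 was Hoxd1 without WT replicate 1 and without HD untreated replicate 3. For HD treated against WT it was 1, and it became 3 with DESeq2, 4 without the filter, 2 without the filter and with the Y-linked covariate (Hoxc5 higher, Hoxb4 lower), 0 with that covariate alone and 0 at an adjusted p under 0.05; leaving out 1 mouse gave 1 to 2, Hoxd1 being added without WT replicate 1, HD untreated replicate 1 or HD untreated replicate 3. For HD treated against HD untreated it was 1, and it became 2 with DESeq2 and without the filter, 0 at P under 0.01 and 0 at an adjusted p under 0.05; leaving out 1 mouse gave 0 to 1, the 0 being without HD treated replicate 1. The no-filter fit with the Y-linked covariate called 1 there too, but Hoxb4 lower in place of Hoxc4 higher. The 0 with the Y-linked covariate alone decides nothing for HD treated against WT, since Hoxc4 was at 0 in every library with Y-linked counts. Except for the filter and the thresholds, the cause of these changes in number was not tested.

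The summed Hox CPM kept its direction against WT under every alternative run. With 1 mouse left out the log2 ratio ranged from 1.44 to 2.63 for HD untreated and from 1.99 to 3.09 for HD treated mice against WT, the upper values being without WT replicate 3, and from 0.15 to 0.86 between the HD groups. Without Hoxc4 the last turned to −0.07, and without Hoxb4, an alternative chosen after seeing the data, it was 0.80.

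Replicate numbers showed no clear pairing of the mice: correlations of same-numbered deviations ranged from −0.08 to 0.24 and not every pair was over 0.1. Different-numbered pairs ranged from −0.28 to 0.16. The highest values, 0.24 and 0.19, were same-numbered pairs of the HD groups. With 3 mice a group this check cannot exclude pairing. With the replicate block 0, 1 and 1 Hox genes were called in the 3 comparisons.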
